A study of Homo sapiens with 14 samples.

Results

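The genes described here encode the nuclear subunits of the 5 complexes of oxidative phosphorylation, together with complex I assembly factors and close relatives of these subunits. They were chosen by name: every gene that had a probe set of its own on the array and whose symbol begins with NDUF, UQCR, COX4, COX5, COX6, COX7, COX8 or ATP5, plus SDHA, SDHB, SDHC, SDHD and CYC1. This gave 92 of the 18129 genes on the array. Each gene was read from the brightest of its probe sets (209 in all, with more than 1 for 57 genes), and 87 genes were bright enough to be tested among 10878 genes. COX4I2, COX7A1, COX7B2, COX8C and ATP5MGL were too dim for a test. SDHB, UQCRFS1, NDUFA4, NDUFA4L2 and the subunits encoded in mitochondrial DNA were not analysed here.

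The cells were PANC-1, an established line from a human pancreatic ductal carcinoma, kept for 24 h in medium with 1% serum and then treated for 48 h. The groups were TGFb1 at 5 ng/ml with acriflavine at 2.5 µM (3 arrays), TGFb1 at 5 ng/ml with sodium valproate at 2 mM (3 arrays), TGFb1 at 5 ng/ml alone (4 arrays) and control cells without TGFb1 (4 arrays). TGFb1 is a cytokine that drives the epithelial-mesenchymal transition, acriflavine is a mixture of acridine dyes known as an inhibitor of the hypoxia-inducible factors, and valproate inhibits histone deacetylases. All cells are of 1 line, acriflavine and valproate were each used at 1 dose, and cells with acriflavine but without TGFb1 were not analysed here.

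Oxidative phosphorylation couples the oxidation of NADH and succinate to ATP synthesis at the inner mitochondrial membrane. Complex I (NADH dehydrogenase), complex III (the cytochrome bc1 complex) and complex IV (cytochrome c oxidase) pump protons, complex II (succinate dehydrogenase) feeds in electrons without pumping, and complex V (ATP synthase) uses the proton gradient. All of the genes described here lie in the nucleus, and their products are imported and put together with the subunits made inside the mitochondrion by dedicated assembly factors.

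Values are log2 intensities, differences are between group means on the log2 scale with the standard error (SE) of the limma fit, and a gene is said to have risen or fallen where its adjusted p was at most 0.05 over all genes tested. The array medians lay between 7.16 and 7.21. TGFb1 replicate 4, TGFb1 replicate 2 and control replicate 4 stood apart from their groups, with a standard deviation (SD) over genes from the group mean of 0.375, 0.256 and 0.250, against 0.0665 to 0.160 for the other 11 arrays. KRT8, KRT18 and KRT19, keratins of ductal epithelium, had group means from 12.06 to 14.12. KRT7, EPCAM and VIM were chosen as markers along with them and are not reported here. Of 16 markers of other cell types, 11 lay below the brightness limit of 6.88, and the sum of the 16 levels ranged from 98.4 to 100.5 in acriflavine arrays, from 99.8 to 100.6 in valproate arrays, from 97.7 to 102.3 in TGFb1 arrays and from 98.7 to 100.8 in control arrays. RNA came from whole cultures, in which fewer cells of a kind and less RNA per cell cannot be told apart. A probe set's level depends on its own probes, so levels are compared between samples and not between genes.

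Adding acriflavine to TGFb1 raised many of the genes. Of the 87 tested, 42 rose and 5 fell against TGFb1 alone (adjusted p from limma), where 24.5% of all genes tested rose and 19.1% fell (43.6% in either direction). The shares among the oxidative phosphorylation genes were 48.3% and 5.75%. Their median difference was 0.187, and that of all genes tested was 0.0289. The changes were modest in size: the largest rise was 1.96-fold, for ATP5IF1, and the largest fall left NDUFAF7 at 0.538 of its level with TGFb1 alone. The highest of the 4 group means was that of the acriflavine arrays for 58 of the 87 genes. The matching share of all genes tested was not computed, so this count is not read as a trait of these genes.

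For acriflavine against TGFb1 alone the shares of all genes were similar among bright genes. Of the 839 genes tested with a mean level of at least 12, 24.9% rose with acriflavine and 18.4% fell. Of the 49 oxidative phosphorylation genes in that range, 26 rose and 3 fell, and of the 38 dimmer ones 16 rose and 2 fell. The count of changed genes was between 34, without acriflavine replicate 2, and 51, without TGFb1 replicate 2, when arrays were left out in turn.

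Valproate and TGFb1 by itself changed few of these genes. With valproate 8 rose and 3 fell against TGFb1 alone, where 31.3% of all genes tested changed (15.1% rose and 16.2% fell). Of the 839 genes with a mean level of at least 12, 9.42% rose and 15.3% fell in this comparison. Of the 49 oxidative phosphorylation genes in that range, 7 rose and 2 fell (14.3% and 4.08%). With TGFb1 alone 1 rose and 4 fell against control, where 18.4% of all genes changed (8.39% rose and 9.97% fell).

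**Figure D1:**
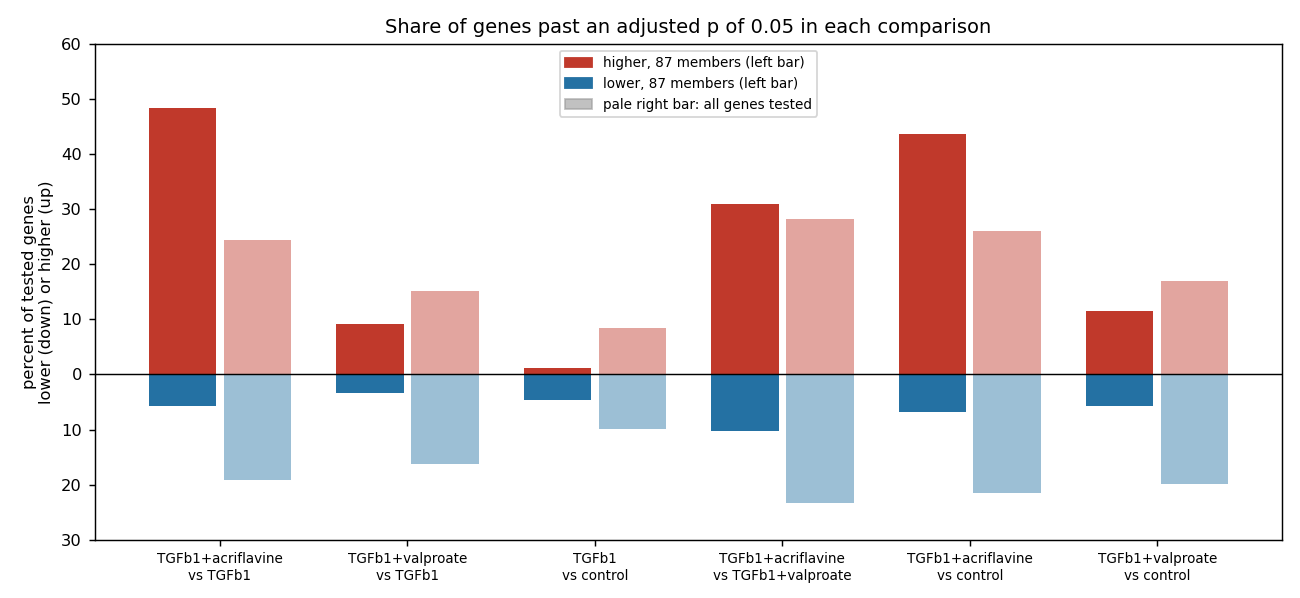
Share of genes that rose (upward bars, percent) or fell (downward bars, percent) in each of the 6 comparisons, for the 87 oxidative phosphorylation genes (left bar of each pair) and for all 10878 genes tested (pale right bar). In the comparison of acriflavine with TGFb1 alone, 48.3% of the oxidative phosphorylation genes rose, against 24.5% of all genes.

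The bars for acriflavine against TGFb1 alone and against control show the upward share above and the downward share below that of all genes. In the 3 comparisons without acriflavine arrays, both shares of the oxidative phosphorylation genes lay below those of all genes. At a mean level of at least 12, however, the upward share with valproate against TGFb1 alone was 14.3%, above 9.42% of all such genes.

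The promoters of 7 genes are shown because they stand for both directions of the acriflavine response and for the motifs that are known from promoters of respiratory genes. NDUFA9, SDHA, COX5B and NDUFS3 rose, NDUFAF7 fell, and ATP5MC1 and ATP5MC2 went in opposite directions although they encode the same mature protein. Each sequence runs from 250 bases before to 50 bases after the start of the gene, 5′ to 3′ on the gene's strand, from RefSeq on build GRCh38.p14. Capitals mark matches on either strand to GCGCA and GCGC parted by 1 base of any kind (NRF1, nuclear respiratory factor 1), CCGGAAG (ETS factors such as GABP), GCCATNTT (YY1), GGGCGG (SP1) and AAGGTCA (oestrogen-related receptors, ERR).
NDUFA9 (chr12:4648864-4649163, forward strand): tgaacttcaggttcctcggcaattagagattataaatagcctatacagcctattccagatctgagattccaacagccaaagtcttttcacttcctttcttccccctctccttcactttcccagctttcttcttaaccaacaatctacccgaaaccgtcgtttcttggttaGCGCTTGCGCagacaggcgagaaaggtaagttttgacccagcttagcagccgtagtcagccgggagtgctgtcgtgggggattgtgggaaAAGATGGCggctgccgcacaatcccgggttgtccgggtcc
SDHA (chr5:218070-218369, forward strand): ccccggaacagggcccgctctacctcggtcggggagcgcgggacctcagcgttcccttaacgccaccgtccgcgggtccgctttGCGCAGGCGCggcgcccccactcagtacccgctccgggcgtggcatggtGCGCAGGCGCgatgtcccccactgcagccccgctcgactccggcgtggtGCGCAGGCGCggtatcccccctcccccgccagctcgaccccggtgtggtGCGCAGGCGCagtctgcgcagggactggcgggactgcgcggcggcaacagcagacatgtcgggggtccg
COX5B (chr2:97645812-97646111, forward strand): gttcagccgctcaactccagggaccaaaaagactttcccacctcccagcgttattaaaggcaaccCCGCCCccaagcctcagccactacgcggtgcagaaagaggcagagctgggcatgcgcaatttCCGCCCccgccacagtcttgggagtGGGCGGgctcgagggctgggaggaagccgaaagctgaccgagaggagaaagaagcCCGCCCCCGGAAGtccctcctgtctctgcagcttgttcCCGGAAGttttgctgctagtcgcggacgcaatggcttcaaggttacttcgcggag
NDUFS3 (chr11:47578824-47579123, forward strand): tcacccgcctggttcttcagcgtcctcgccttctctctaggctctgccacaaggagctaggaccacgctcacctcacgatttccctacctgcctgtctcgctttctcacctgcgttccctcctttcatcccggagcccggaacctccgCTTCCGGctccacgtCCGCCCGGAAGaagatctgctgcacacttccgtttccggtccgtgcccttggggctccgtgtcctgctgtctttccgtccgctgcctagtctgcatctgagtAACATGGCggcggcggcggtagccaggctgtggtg
NDUFAF7 (chr2:37231408-37231707, forward strand): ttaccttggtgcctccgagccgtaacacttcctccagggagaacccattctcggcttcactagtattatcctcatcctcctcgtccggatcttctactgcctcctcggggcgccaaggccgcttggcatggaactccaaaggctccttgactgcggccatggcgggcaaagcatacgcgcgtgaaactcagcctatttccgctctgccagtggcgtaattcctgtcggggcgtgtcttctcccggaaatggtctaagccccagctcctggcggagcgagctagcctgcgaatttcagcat
ATP5MC1 (chr17:48892537-48892836, forward strand): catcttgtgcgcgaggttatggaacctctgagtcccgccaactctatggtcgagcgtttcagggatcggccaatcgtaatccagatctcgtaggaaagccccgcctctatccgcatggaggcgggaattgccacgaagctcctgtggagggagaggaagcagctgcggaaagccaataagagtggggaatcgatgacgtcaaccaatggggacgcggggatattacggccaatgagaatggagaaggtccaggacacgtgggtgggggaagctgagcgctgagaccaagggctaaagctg
ATP5MC2 (chr12:53676034-53676333, reverse strand): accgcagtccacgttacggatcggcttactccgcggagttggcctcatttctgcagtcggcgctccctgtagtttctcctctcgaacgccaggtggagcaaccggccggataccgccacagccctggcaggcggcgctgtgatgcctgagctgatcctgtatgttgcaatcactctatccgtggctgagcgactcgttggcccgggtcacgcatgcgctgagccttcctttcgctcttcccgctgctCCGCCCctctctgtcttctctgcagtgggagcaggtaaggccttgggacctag

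SDHA holds 4 NRF1 matches in this window, and COX5B holds 2 ETS matches and 4 SP1 matches. NDUFS3 holds 2 ETS matches, 1 YY1 match and 1 SP1 match that overlaps an ETS match, and NDUFA9 holds 1 NRF1 and 1 YY1 match. None of the 5 motifs was found in the windows of NDUFAF7 and ATP5MC1, and that of ATP5MC2 held 1 SP1 match.

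A promoter was at hand for 75 of the 92 genes. The NRF1 motif was in 22.7% of them and in 6.28% of all 27305 promoters of the table, the ETS motif in 26.7% against 10.7%, the YY1 motif in 26.7% against 6.82%, the ERR motif in 10.7% against 3.97% and the SP1 motif in 56% against 44.6%. Among the 35 genes that rose with acriflavine, 14 held the ETS motif (40%) and 13 the YY1 motif (37.1%). Among the 34 tested genes that did not pass, 6 held the ETS motif (17.6%) and 7 the YY1 motif (20.6%). The NRF1 motif did not follow this order, with 7 of the 35 (20%) and 9 of the 34 (26.5%). Only 4 of the genes that fell had a promoter in the table. These matches are descriptions of the letters in the window and were not tested.

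Complex I takes electrons from NADH through a chain of iron-sulfur clusters to ubiquinone. With acriflavine 20 of its 44 tested genes rose and 3 fell, with a median difference of 0.175. These shares were 45.5% and 6.82%, against 24.5% and 19.1% of all genes tested. By role, 4 of 6 core subunits, 15 of 30 accessory subunits and 1 of 8 assembly factors rose, while no core subunit, 1 accessory subunit and 2 assembly factors fell.

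NDUFA9, an accessory subunit that binds a nicotinamide nucleotide near the ubiquinone site, had the largest rise in the complex. Its level was 10.94, 10.90 and 11.03 in acriflavine arrays, against 9.96, 10.35, 9.81 and 10.36 in TGFb1 arrays. The valproate arrays had 10.30, 9.93 and 10.15, and the control arrays 10.00, 9.92, 9.83 and 10.08. All 3 acriflavine arrays lay above the 11 others, whose groups overlapped each other. The difference from TGFb1 alone was 0.83 ± 0.14 (adjusted p = 0.000227 by limma).

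NDUFA7, an accessory subunit, was lowest with TGFb1 alone and highest with acriflavine. It had 10.72, 10.66 and 10.59 in acriflavine arrays and 10.20, 10.14 and 10.32 in valproate arrays. TGFb1 arrays had 10.01, 10.13, 10.01 and 9.55, and control arrays 10.42, 10.34, 10.40 and 10.24. The acriflavine arrays lay above the control arrays and the TGFb1 arrays below them, and the lowest TGFb1 value was that of replicate 4. The difference between acriflavine and TGFb1 alone was 0.73 ± 0.12 (adjusted p = 0.000201).

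NDUFB1, a small accessory subunit of the membrane arm, had the same order of extremes. Its levels were 12.86, 12.77 and 12.70 with acriflavine, 12.47, 12.51 and 12.50 with valproate, 12.26, 12.15, 12.22 and 12.10 with TGFb1 alone and 12.61, 12.48, 12.57 and 12.36 in control. All TGFb1 arrays lay below every array of the other 3 groups. It was the only gene among the 87 that changed in all 3 of the comparisons of acriflavine with TGFb1 (0.59 ± 0.078, adjusted p = 4.02e-05), of valproate with TGFb1 (0.31 ± 0.078, adjusted p = 0.00714) and of TGFb1 with control (-0.32 ± 0.072, adjusted p = 0.00656). These comparisons share the TGFb1 arrays.

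Among the core subunits, NDUFS3, which lies in the arm that reaches into the matrix, had 11.83, 11.96 and 11.71 in acriflavine arrays, against 11.21, 11.56, 11.07 and 11.61 in TGFb1 arrays. The 2 higher TGFb1 values were those of replicates 2 and 4, and no acriflavine array fell below them. The difference was 0.47 ± 0.13 (adjusted p = 0.00976), and without acriflavine replicate 2 it was 0.403 with an adjusted p of 0.0516. Averaged over its probe sets the difference was 0.187 and did not pass (adjusted p = 0.105). Its other probe set had a mean of 4.82, below the brightness limit of 6.88, and gave -0.093. The iron-sulfur subunits NDUFV2 (0.38), NDUFS7 (0.37) and NDUFS8 (0.31) rose as well. NDUFV1, which binds the flavin that accepts electrons from NADH, and NDUFS1, the largest iron-sulfur subunit, had differences of 0.056 and 0.010 and did not pass.

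Further accessory subunits that rose included NDUFA2 (0.61 ± 0.088, adjusted p = 9.75e-05), NDUFA8 (0.57 ± 0.13, adjusted p = 0.00346) and NDUFAB1, the mitochondrial acyl carrier protein (0.28 ± 0.069, adjusted p = 0.00516). NDUFA8 had 11.91, 11.92 and 11.76 in acriflavine arrays, against 11.14, 11.24, 11.05 and 11.73 in TGFb1 arrays, and the TGFb1 value nearest to acriflavine was again that of replicate 4. NDUFS5, an accessory subunit on the intermembrane side, fell by 0.296 (adjusted p = 0.0068). NDUFA5, an accessory subunit of the matrix arm, had 9.63, 9.62 and 9.69 with acriflavine, 10.33, 10.23 and 10.32 with valproate, 10.00, 9.53, 10.10 and 10.35 with TGFb1 alone and 10.33, 10.37, 10.29 and 10.32 in control. TGFb1 replicate 2 lay below all acriflavine arrays, and the difference from TGFb1 alone did not pass (-0.345, adjusted p = 0.0575). Against valproate (-0.64 ± 0.15, adjusted p = 0.00232) and against control (-0.68 ± 0.14, adjusted p = 0.00116) it was lower with acriflavine.

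Of the 8 complex I assembly factors, 1 rose and 2 fell with acriflavine, where 24.5% of all genes tested rose and 19.1% fell. NDUFAF7, a methyltransferase that acts early in complex I assembly, had 8.0, 8.11 and 8.14 in acriflavine arrays. The valproate arrays had 9.09, 9.04 and 8.93, the TGFb1 arrays 8.91, 8.93, 8.77 and 9.30, and the control arrays 9.14, 8.97, 9.20 and 8.90. All acriflavine arrays lay below all others, by more than the spread within any group, and the other 3 groups overlapped. The difference from TGFb1 alone was -0.90 ± 0.12 (adjusted p = 3.77e-05), and the other 2 probe sets of NDUFAF7 gave -0.924 and -0.923. Its start lies 62 bases from that of CEBPZ, a gene read in the other direction, whose difference of -0.104 did not pass (adjusted p = 0.659).

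NDUFAF6, which is needed early in the assembly of complex I, was the gene with the widest range of group means. Its levels were 10.15, 10.17 and 10.10 with acriflavine and 9.0, 8.73 and 8.85 with valproate. They were 9.51, 9.70, 9.42 and 10.17 with TGFb1 alone and 9.18, 9.44, 9.33 and 9.64 in control. The valproate arrays lay below all others, and the acriflavine arrays lay above all others but TGFb1 replicate 4. Between acriflavine and valproate the difference was 1.28 ± 0.17 (2.43-fold, adjusted p = 2.23e-05). Against TGFb1 alone it rose with acriflavine (0.44 ± 0.15, adjusted p = 0.0322) and fell with valproate (-0.84 ± 0.15, adjusted p = 0.000964), in opposite directions as no other gene of the 87 did. The rise with acriflavine did not pass without any 1 of the acriflavine arrays (adjusted p from 0.0649 to 0.0888), nor without TGFb1 replicate 1 or 3 (adjusted p = 0.0873 and 0.0938). It passed without both replicates 4 (0.597, adjusted p = 0.000104 by limma) and with the replicate block (0.559, adjusted p = 0.000687).

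NDUFAF8, a partner of NDUFAF5, fell by 0.397 with acriflavine (adjusted p = 0.00053). Its levels were 10.58, 10.55 and 10.50 with acriflavine, against 10.91, 10.94, 10.88 and 11.04 with TGFb1 alone. The remaining factors NDUFAF1, NDUFAF2, NDUFAF3, NDUFAF4 and NDUFAF5 had differences between -0.195 and 0.170, and none passed. Without both replicates 4, however, NDUFAF4 was lower (-0.282, adjusted p = 0.00177) and NDUFAF1 higher (0.212, adjusted p = 0.0376), and both also passed with the replicate block (-0.305 and 0.213, adjusted p = 0.00404 and 0.0467).

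**Figure D2:**
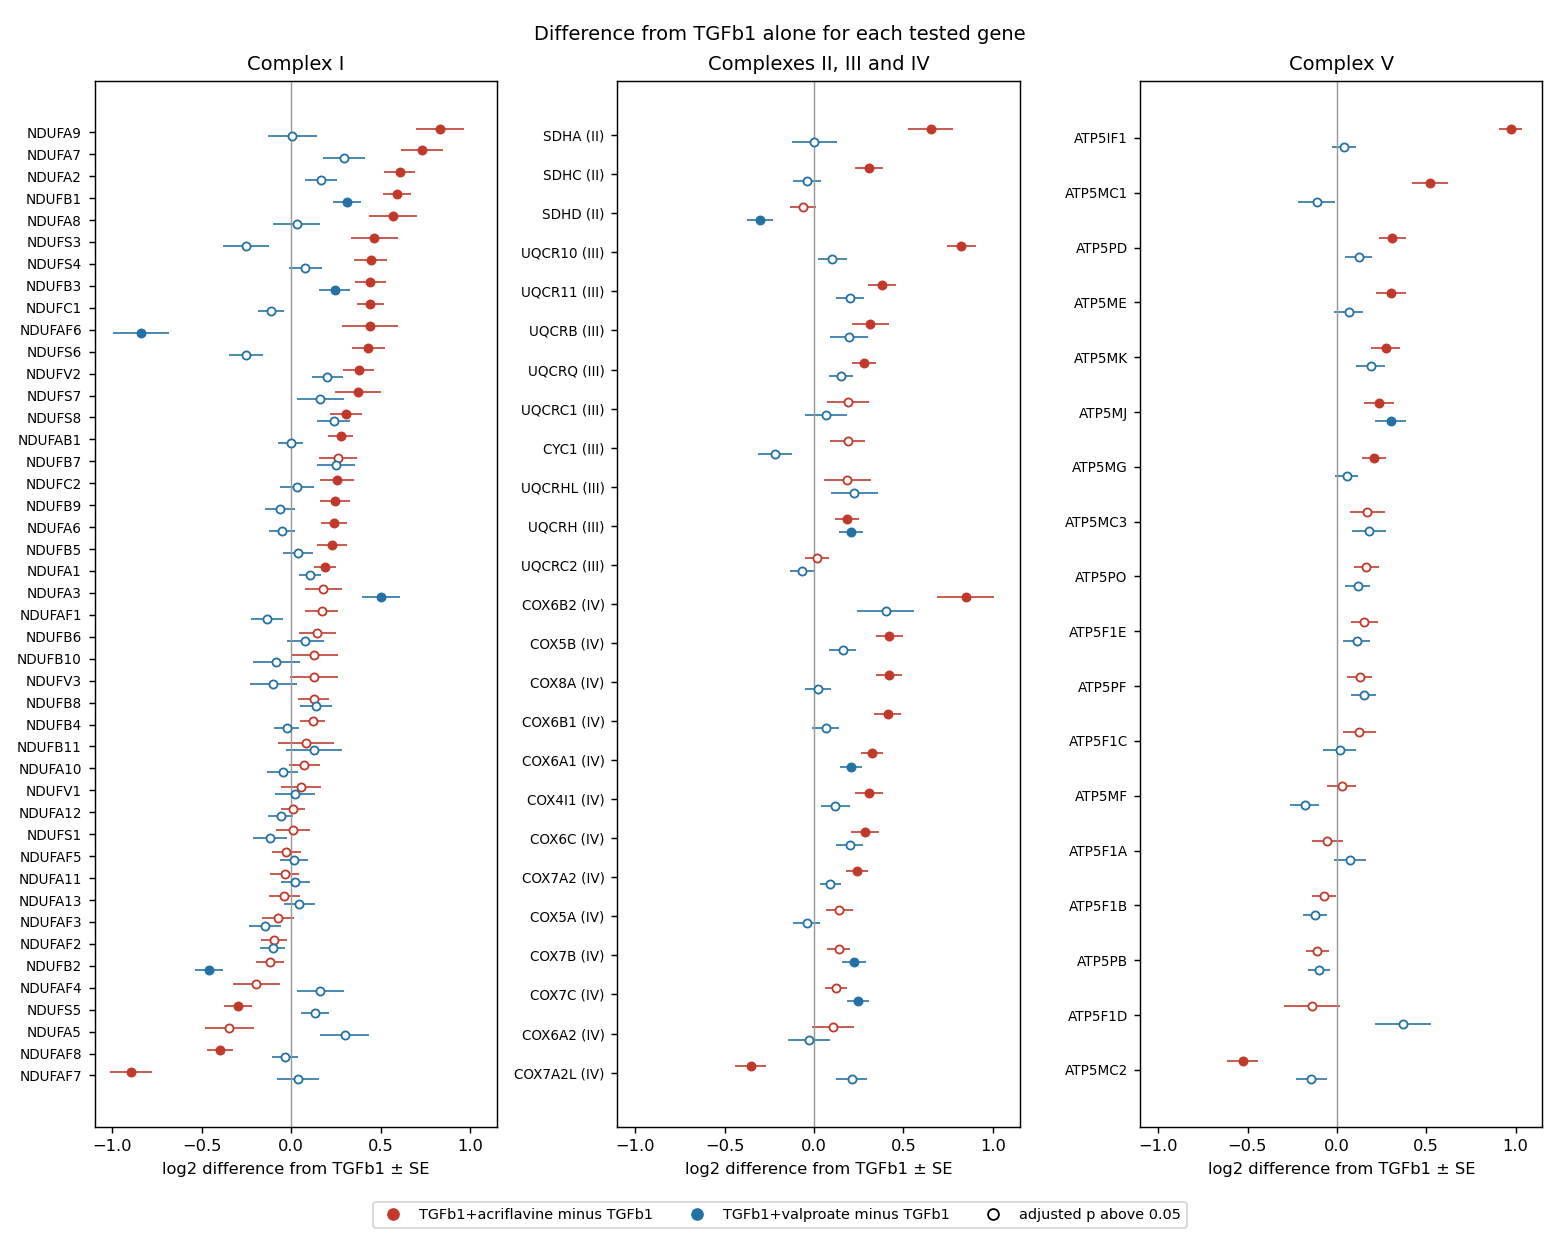
Difference from TGFb1 alone (log2 units, point) with its standard error (line) for each of the 87 tested genes, with acriflavine in red above and with valproate in blue below. Filled points passed an adjusted p of 0.05: 42 red points to the right and 5 to the left of 0, and 8 blue points to the right and 3 to the left.

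In the plot of differences the red points run further right than the blue ones for most subunits of all 5 complexes, while NDUFAF6 has its red and its blue point on opposite sides of 0. The blue points that passed are small in size except for NDUFA3, NDUFB2 and NDUFAF6.

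Complex II was read from 3 genes. SDHA, the flavoprotein that oxidises succinate, had 11.20, 11.17 and 11.20 with acriflavine, 10.59, 10.31 and 10.71 with valproate, 10.39, 10.64, 10.31 and 10.82 with TGFb1 alone and 10.57, 10.62, 10.43 and 10.72 in control. The acriflavine arrays lay close together above all others, and the other 3 groups overlapped. The difference from TGFb1 alone was 0.65 ± 0.13 (adjusted p = 0.000896). SDHA has close pseudogene copies that its probes may also read. Its neighbour CCDC127, which starts 167 bases away on the other strand, rose by 0.619 (adjusted p = 0.000836). Of the oxidative phosphorylation genes, 21 had a tested neighbour of this kind, and CCDC127 was chosen after its values were seen. Some other pairs also rose together and others did not. ATP5MK, for example, rose by 0.272 while its neighbour fell by 0.644.

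SDHC, a membrane anchor of complex II, also rose with acriflavine (0.31 ± 0.079, adjusted p = 0.00572). Other probe sets of SDHC gave 0.382, which passed, and 0.222, 0.149 and -0.094, which did not. SDHD, also a membrane anchor, did not pass with acriflavine against TGFb1 alone (-0.062). SDHD had 12.09, 11.97 and 12.09 with acriflavine, 11.84, 11.79 and 11.80 with valproate, 12.17, 11.96, 12.14 and 12.17 with TGFb1 alone and 12.33, 12.25, 12.28 and 12.21 in control. The valproate arrays were the lowest and the control arrays the highest, without overlap with any other group. SDHD fell by 0.300 with valproate against TGFb1 alone (adjusted p = 0.00642) and by 0.457 against control (adjusted p = 0.000262). It was also lower with acriflavine than in control (-0.22 ± 0.073, adjusted p = 0.0238).

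Complex III passes electrons from ubiquinol to cytochrome c. With acriflavine 5 of its 9 genes rose (55.6%, against 24.5% of all genes tested) and none fell (19.1% of all genes). Their median difference was 0.189. UQCR10, a small subunit beside cytochrome c1, had 13.17, 13.22 and 13.11 with acriflavine, 12.49, 12.37 and 12.47 with valproate, 12.35, 12.46, 12.18 and 12.37 with TGFb1 alone and 12.43, 12.45, 12.31 and 12.49 in control. The acriflavine arrays stood clear of the 11 others, which overlapped. The difference from TGFb1 alone was 0.83 ± 0.081 (adjusted p = 3.53e-06).

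UQCR11 (0.38), UQCRB (0.32), UQCRQ (0.28) and UQCRH (0.19) rose less. UQCRH, the hinge protein, has a near-identical copy, UQCRHL, so that its values are uncertain, and its difference was -0.012 where its probe sets were averaged. CYC1, cytochrome c1, and the core proteins UQCRC1 and UQCRC2 did not pass (0.188, 0.189 and 0.017). CYC1 was higher with acriflavine than with valproate (0.405 ± 0.10, adjusted p = 0.00458) and than in control (0.32 ± 0.096, adjusted p = 0.0138). UQCRC1 had 12.96, 13.01 and 13.00 with acriflavine, 12.89, 12.79 and 12.93 with valproate, 12.86, 13.04, 12.79 and 12.51 with TGFb1 alone and 12.62, 12.50, 12.50 and 12.22 in control. Its control arrays were lower than those of both inhibitor groups without overlap, and replicate 4 was the lowest of both the TGFb1 and the control group.

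Complex IV reduces oxygen to water. With acriflavine 8 of its 13 tested genes rose and 1 fell, with a median difference of 0.286. These shares were 61.5% and 7.69%, against 24.5% and 19.1% of all genes tested. All 10 widely expressed subunits had positive differences (0.124 to 0.420), and 7 of them passed. Of the 10878 genes tested, 5807 had positive differences. COX5B, a zinc-binding subunit, had 12.91, 12.94 and 12.76 with acriflavine, 12.61, 12.56 and 12.67 with valproate, 12.44, 12.57, 12.42 and 12.37 with TGFb1 alone and 12.61, 12.52, 12.54 and 12.48 in control. The acriflavine arrays were highest, without overlap, and the difference from TGFb1 alone was 0.42 ± 0.075 (adjusted p = 0.000502).

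COX8A (0.42), COX6B1 (0.41), COX6A1 (0.33), COX4I1 (0.31), COX6C (0.29) and COX7A2 (0.24) rose with it, while COX5A, COX7B and COX7C did not pass (0.141, 0.137 and 0.124). COX4I1, the regulatory subunit IV, had a difference of -0.114 (adjusted p = 0.209) on its dimmer probe set, which was used when probe sets open to cross-hybridisation (those whose names end in _x_at) were left out. Among the isoforms of particular tissues, COX6B2, known from testis, had 8.30, 8.54 and 8.27 with acriflavine, 7.89, 7.92 and 7.97 with valproate, 7.62, 7.85, 7.62 and 7.01 with TGFb1 alone and 7.31, 7.44, 7.14 and 7.07 in control. The order ran from acriflavine through valproate down to control, with no overlap among these 3 groups. The difference between acriflavine and TGFb1 alone was 0.85 ± 0.16 (adjusted p = 0.000766), and without _x_at probe sets it was 0.269 and did not pass. COX6A2, a muscle isoform, had a difference of 0.108 that did not pass.

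COX7A2L, a factor that links complexes III and IV into supercomplexes, fell while its relative COX7A2 rose. It had 12.04, 12.07 and 11.95 with acriflavine, 12.51, 12.63 and 12.61 with valproate, 12.47, 12.44, 12.44 and 12.15 with TGFb1 alone and 12.47, 12.37, 12.47 and 12.32 in control. The acriflavine arrays lay below all others and the valproate arrays above all others, with TGFb1 replicate 4 the nearest to acriflavine. The differences were -0.35 ± 0.087 against TGFb1 alone (adjusted p = 0.00459) and -0.56 ± 0.093 against valproate (adjusted p = 0.000183). Another probe set of COX7A2L gave -0.254 against TGFb1 alone, which did not pass (adjusted p = 0.124 by limma). Against valproate that set gave -0.574 and passed (adjusted p = 0.0019).

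**Figure D3:**
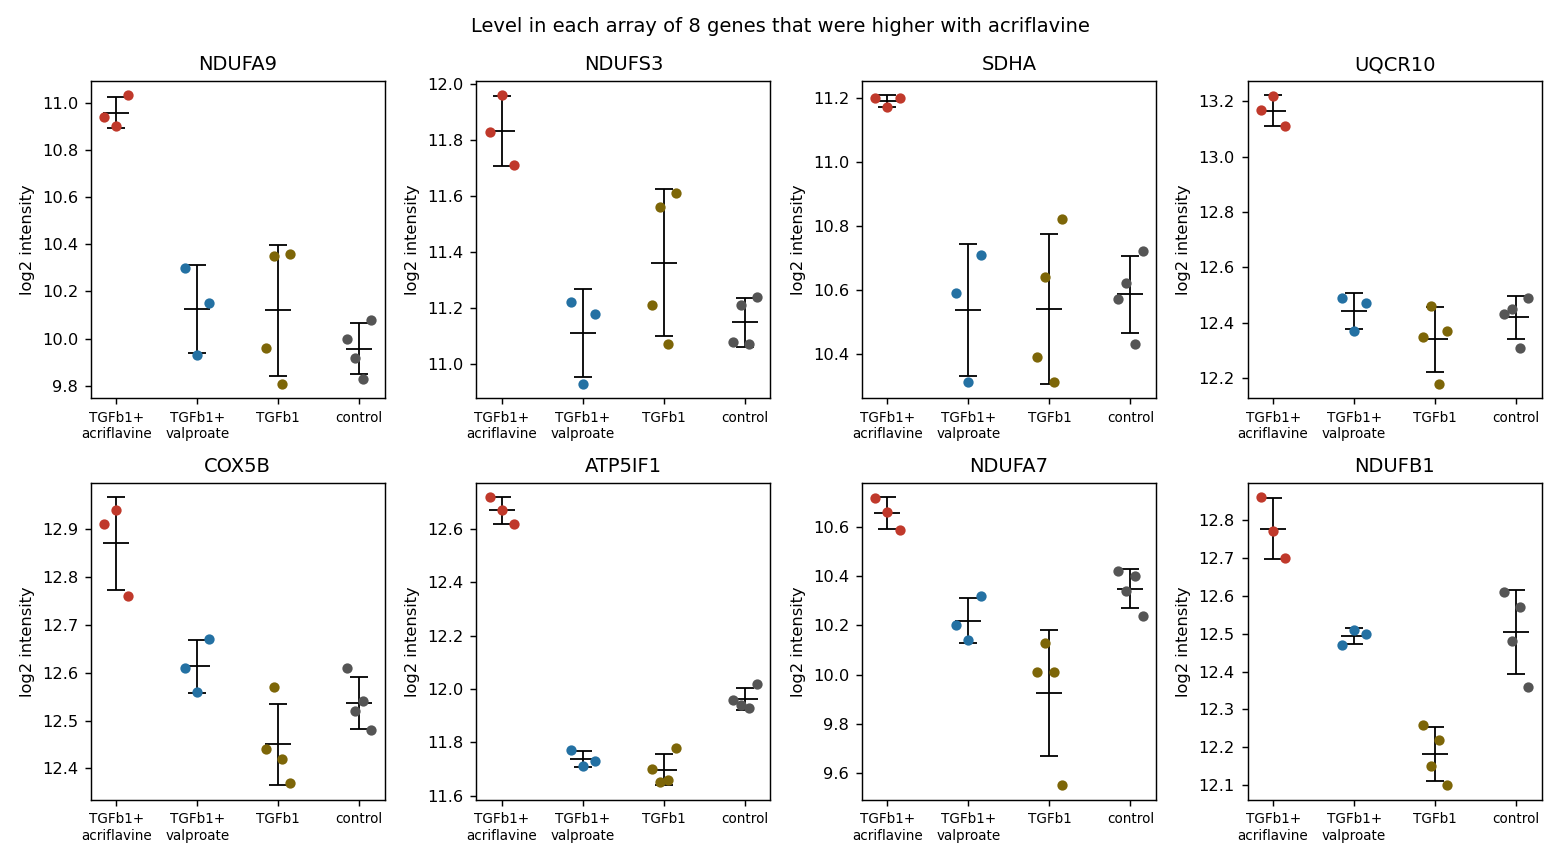
Level (log2 intensity) of 8 genes that rose with acriflavine in each array, with the group mean (horizontal mark) and SD (whiskers) of 3, 3, 4 and 4 arrays. The red acriflavine points lie above all other points in every panel, as for UQCR10 (13.11 to 13.22 with acriflavine).

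The 8 panels show that the groups other than acriflavine differ from gene to gene. In NDUFA7 and NDUFB1 the TGFb1 points are the lowest, in ATP5IF1 the valproate and TGFb1 points lie together below control, and in NDUFA9, SDHA and UQCR10 the valproate, TGFb1 and control points overlap.

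Complex V makes ATP as protons flow back through it. With acriflavine 7 of its 18 tested genes rose and 1 fell, with a median difference of 0.159. These shares were 38.9% and 5.56%, against 24.5% and 19.1% of all genes tested. In either direction the share was 44.4%, near the 43.6% of all genes. None of the 5 subunits of the catalytic F1 head passed in either direction (-0.140 to 0.154). ATP5F1D, the delta subunit, had 10.95, 11.10 and 10.93 with acriflavine, against 11.24, 11.44, 11.18 and 10.67 with TGFb1 alone, and TGFb1 replicate 4 was the lowest of these arrays. Without both replicates 4 ATP5F1D was lower (-0.293, adjusted p = 0.00903) and ATP5F1E, the epsilon subunit, higher (0.208, adjusted p = 0.0126), and both passed with the replicate block (-0.270 and 0.187, adjusted p = 0.0256 and 0.0476). Of the membrane subunits, which hold the dimer together, 4 of 5 rose: ATP5ME (0.30), ATP5MK (0.27), ATP5MJ (0.24) and ATP5MG (0.21). Of the 4 stalk subunits ATP5PD rose (0.31).

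ATP5IF1 encodes the inhibitory factor that binds the F1 head and blocks the hydrolysis of ATP. It had 12.72, 12.67 and 12.62 with acriflavine, 11.77, 11.71 and 11.73 with valproate, 11.70, 11.65, 11.66 and 11.78 with TGFb1 alone and 11.96, 11.94, 11.93 and 12.02 in control. The acriflavine arrays were the highest, the control arrays came next, and the TGFb1 and valproate arrays overlapped below them. The difference between acriflavine and TGFb1 alone was 0.97 ± 0.065 (adjusted p = 1.23e-07), between TGFb1 alone and control -0.27 ± 0.060 (adjusted p = 0.00666), and between acriflavine and control 0.70 ± 0.065 (adjusted p = 2.18e-06). Its 3 brighter probe sets gave 0.973, 0.831 and 1.037 with acriflavine, while a further dim set with a mean of 7.30 gave -0.445 (adjusted p = 0.0212).

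The c-ring, which turns as protons pass, is made of 1 protein that 3 genes encode with different import sequences. ATP5MC1 had 12.26, 12.34 and 12.08 with acriflavine, against 11.74, 11.82, 11.63 and 11.62 with TGFb1 alone, and the groups did not overlap. ATP5MC2 had 11.78, 11.85 and 11.75 with acriflavine, against 12.36, 12.49, 12.25 and 12.17 with TGFb1 alone, also without overlap. The differences were 0.52 ± 0.10 (adjusted p = 0.000979) for ATP5MC1 and -0.53 ± 0.088 (adjusted p = 0.000289) for ATP5MC2. ATP5MC3 had 13.35, 13.34 and 13.31 with acriflavine, against 13.03, 13.28, 12.99 and 13.34 with TGFb1 alone, and its difference of 0.17 did not pass (0.230 without both replicates 4, adjusted p = 0.0333). ATP5MC1 rose and ATP5MC2 fell against TGFb1 alone, and against valproate they also differed in opposite directions, by 0.63 ± 0.11 (adjusted p = 0.00026) for ATP5MC1 and -0.39 ± 0.094 (adjusted p = 0.00365) for ATP5MC2.

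**Figure D4:**
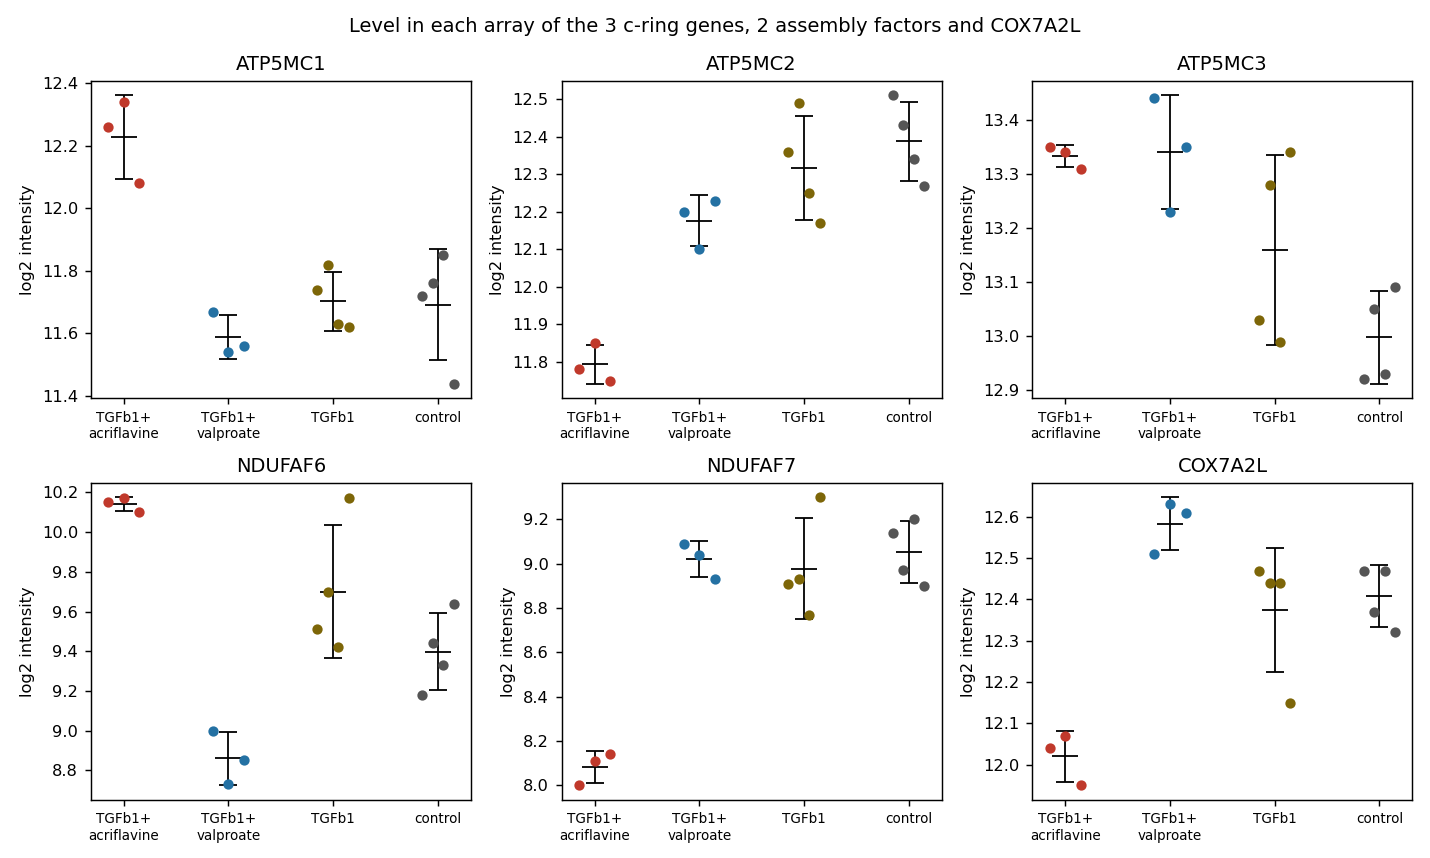
Level (log2 intensity) of the 3 c-ring genes, the assembly factors NDUFAF6 and NDUFAF7 and the supercomplex factor COX7A2L in each array, with the group mean (horizontal mark) and SD (whiskers). Acriflavine points are highest for ATP5MC1 (12.08 to 12.34) and lowest for ATP5MC2, NDUFAF7 and COX7A2L.

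In the panels the acriflavine points of ATP5MC1 lie above and those of ATP5MC2 below all others, and NDUFAF6 is the only gene of the 6 whose valproate points lie below all others.

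Averaged over genes, each complex was highest with acriflavine. For each array, the mean level of a complex was set against the control mean. Complex III stood at 0.323 ± 0.064 with acriflavine, 0.135 ± 0.057 with valproate and 0.038 ± 0.053 with TGFb1 alone, against a control SD of 0.044 (SD, n = 3, 3, 4 and 4). Complex IV stood at 0.249 ± 0.051, 0.131 ± 0.023 and -0.014 ± 0.082 in the same order, complex I at 0.160 ± 0.044, 0.010 ± 0.060 and -0.010 ± 0.057, and complex V at 0.112 ± 0.040, 0.025 ± 0.043 and -0.038 ± 0.046. Complex II was the only complex below control with valproate, at -0.195 ± 0.102, with 0.217 ± 0.016 with acriflavine and -0.082 ± 0.091 with TGFb1 alone. Its valproate mean rests mainly on SDHD (-0.457 against control), while SDHA (-0.05) and SDHC (-0.078) did not pass. These means summarise a chosen set of genes and were not tested.

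**Figure D5:**
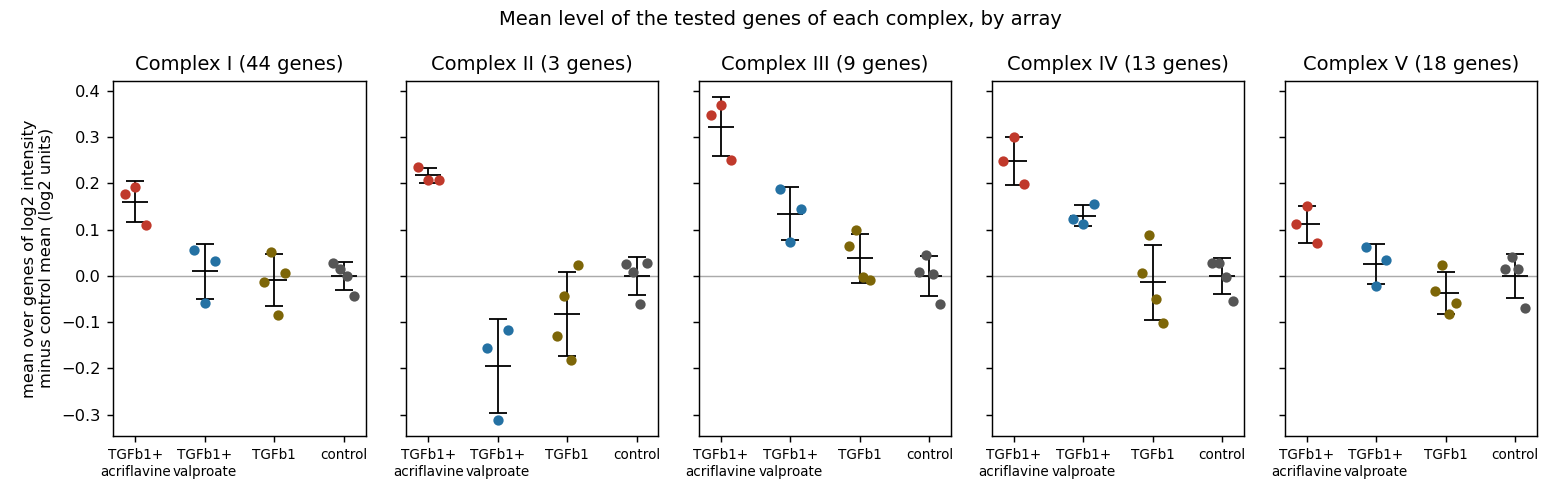
Mean over the tested genes of each complex of the log2 intensity minus the control mean (log2 units), 1 point per array, with the group mean (horizontal mark) and SD (whiskers). Acriflavine points lie highest in all 5 complexes, and the valproate points of complex II lie between -0.311 and -0.118.

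The acriflavine points do not overlap with those of any other group in any of the 5 panels. The valproate points of complexes III and IV lie above all control points. Those of complex II, a mean of 3 genes of which only SDHD passed, lie below them. Against control, 3 of the 9 complex III genes rose with valproate, and 1 of the 13 of complex IV (COX6B2, 0.685). These shares were 33.3% and 7.69%, against 16.9% of all genes tested.

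Valproate against TGFb1 alone gave smaller and fewer differences. NDUFA3, a small accessory subunit of complex I, had 12.97, 12.77 and 12.99 with valproate, against 12.42, 12.69, 12.26 and 12.25 with TGFb1 alone, without overlap, and rose by 0.50 ± 0.11 (adjusted p = 0.00234). NDUFB1 (0.31), ATP5MJ (0.30), COX7C (0.25), NDUFB3 (0.25), COX7B (0.22), COX6A1 (0.21) and UQCRH (0.21) also rose. The valproate and TGFb1 arrays of NDUFB3 overlapped, its adjusted p was 0.0452, and another of its probe sets gave -0.573. NDUFB2, an accessory subunit of the membrane arm, had 12.18, 12.21 and 12.33 with valproate, against 12.66, 12.67, 12.65 and 12.81 with TGFb1 alone, and fell by 0.459 (adjusted p = 0.000465). NDUFAF6 and SDHD, described above, were the other falls. COX6B2 had the largest difference that did not pass (0.402).

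The count of 11 changed genes moved with single arrays. It was 19 without TGFb1 replicate 2, 20 without both replicates 4, 6 without valproate replicate 1 and 7 without valproate replicate 2. All 11 genes were among the 20.

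TGFb1 alone changed few of the genes against control. NDUFA7 fell by 0.428 (adjusted p = 0.0139), NDUFB1 by 0.323 (adjusted p = 0.00656), ATP5IF1 by 0.270 (adjusted p = 0.00666) and NDUFC1, an accessory subunit of complex I, by 0.215 (adjusted p = 0.0455), each without overlap between the arrays. UQCRC1 rose by 0.339 (adjusted p = 0.0452) with overlapping arrays. The median over the 87 genes was -0.0262, and that of all genes tested was 0.00157. NDUFA5 had the largest difference that did not pass (-0.334).

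With the replicate number as a block, 9 genes passed (3 rose and 6 fell), among them the same 5, with ATP5MK, COX6B2, NDUFA5 and NDUFAF6 in addition. Of all genes tested, 28.9% passed with the block. Within replicates 1 to 3 the median over the 87 genes was -0.046 and within replicate 4 it was 0.027, and 62 of the 87 genes had the same sign in both. The count was 8 without TGFb1 replicate 4 and 3 without TGFb1 replicate 1, control replicate 2 or control replicate 3.

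Acriflavine and valproate were compared directly on the TGFb1 background, which tests where they differ. Of the 87 genes 27 were higher with acriflavine and 9 lower (51.5% of all genes tested differed, 28.3% higher and 23.3% lower), with a median of 0.126 against 0.036 for all genes. The share that was higher, 31.0%, lay near that of all genes, and the share that was lower was 10.3%. NDUFAF6 (1.28), ATP5IF1 (0.93), NDUFA9 (0.83), UQCR10 (0.72) and NDUFS3 (0.72) were higher, and NDUFAF7 (-0.94), NDUFA5 (-0.64), COX7A2L (-0.56), ATP5F1D, the delta subunit of F1 (-0.51), and NDUFS5 (-0.43) were lower. The difference of ATP5F1D did not pass without acriflavine replicate 1 or 3 or valproate replicate 3 (adjusted p from 0.0611 to 0.0649). NDUFV3, an accessory subunit of complex I, had the largest difference that did not pass (0.228). Other probe sets of NDUFV3 gave 0.701 and 0.565 and passed. Against TGFb1 alone NDUFV3 did not pass with acriflavine (0.129), while those sets gave 0.656 and 0.556 and passed.

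Both inhibitor groups were also set against control cells, which shows where the levels stood relative to untreated cells. With acriflavine 38 genes were higher than in control and 6 lower (47.7% of all genes tested differed, 26.1% higher and 21.6% lower). With valproate 10 were higher and 5 lower (36.7% of all genes, 16.9% higher and 19.8% lower), and the count of 15 was 9 without valproate replicate 1. COX6B2 was 1.13 ± 0.16 higher with acriflavine (adjusted p = 7.4e-05) and 0.69 ± 0.16 higher with valproate (adjusted p = 0.0042) than in control. On the probe set of COX6B2 used when _x_at sets were left out, these differences were 0.455 (adjusted p = 0.0116) with acriflavine and 0.281 with valproate, which did not pass (adjusted p = 0.115). NDUFA9 was 1.00 ± 0.14 higher with acriflavine (2.0-fold, adjusted p = 4.99e-05). ATP5IF1 was above control with acriflavine and below it with valproate (-0.23 ± 0.065, adjusted p = 0.0131).

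Genes that act around the 5 complexes were read from lists outside the naming rule. Of all genes tested, 24.5% rose and 19.1% fell with acriflavine, and 15.1% rose and 16.2% fell with valproate. Of 46 assembly factors of complexes I to V, 22 rose with acriflavine and 5 fell (47.8% and 10.9%), with a median of 0.224. COA6, a copper-handling assembly factor of complex IV, rose by 0.81 ± 0.12 (adjusted p = 9.37e-05) and COA3, which acts on the translation of a core subunit of complex IV, by 0.79 ± 0.12 (adjusted p = 0.000123). COX20, a chaperone of another core subunit, fell by 0.792 (adjusted p = 1.32e-05). With valproate 5 of the 46 rose and 7 fell (10.9% and 15.2%), near the shares of all genes. COA6 differed by 1.37 ± 0.13 between acriflavine and valproate (adjusted p = 1.01e-06), the largest difference in this list.

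Of 20 tested genes of pyruvate dehydrogenase and the citric acid cycle, 9 rose with acriflavine and 2 fell (45% and 10%, against 24.5% and 19.1% of all genes). PDP1, the phosphatase that activates pyruvate dehydrogenase, rose by 0.91 ± 0.17 (adjusted p = 0.000646), PDHX, a structural component of that enzyme, by 0.79 ± 0.13 (adjusted p = 0.000251), and PDK1, a kinase that inactivates it and a known target of hypoxia-inducible factor, fell by 0.854 (adjusted p = 0.00133). Of 17 genes of electron carriers and coenzyme Q synthesis, 7 rose and 5 fell (41.2% and 29.4%). COQ10A rose by 0.81 ± 0.097 (adjusted p = 1.82e-05) and ETFDH, which passes electrons from fatty acid oxidation to ubiquinone, fell by 0.766 (adjusted p = 0.000264). With valproate 1 of the 20 rose and 2 fell (5% and 10%), and of the 17 genes 3 rose and 5 fell (17.6% and 29.4%), against 15.1% and 16.2% of all genes. COQ7 fell by 0.854 (adjusted p = 1.88e-05) and COQ2 by 0.754 (adjusted p = 0.000187) with valproate, both enzymes of coenzyme Q synthesis.

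Of 18 tested regulators of mitochondrial transcription and biogenesis, 6 rose with acriflavine and 3 fell (33.3% and 16.7%, against 24.5% and 19.1% of all genes). With valproate 1 rose and 4 fell (5.56% and 22.2%, against 15.1% and 16.2% of all genes). TFB1M, a methyltransferase of mitochondrial ribosomal RNA, rose with acriflavine (0.75 ± 0.078, adjusted p = 5.98e-06) and with valproate (0.66 ± 0.078, adjusted p = 3.21e-05). ESRRA, the oestrogen-related receptor alpha, rose with acriflavine (0.53 ± 0.10, adjusted p = 0.00107), and MYC fell by 0.647 (adjusted p = 0.0159). With valproate PPRC1, a coactivator of respiratory genes, fell by 0.736 (adjusted p = 0.000156) and NRF1 by 0.570 (adjusted p = 0.00102). PPARGC1A, the best known coactivator of this programme, was too dim for a test.

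Of 26 genes of mitochondrial import, the outer membrane and proteases, 5 rose and 4 fell with acriflavine (19.2% and 15.4%), near the shares of all genes (24.5% and 19.1%). With valproate 1 rose and 9 fell (3.85% and 34.6%, against 15.1% and 16.2% of all genes). SLC25A4, an ADP/ATP carrier, rose with acriflavine (0.72 ± 0.14, adjusted p = 0.000812) and with valproate (0.51 ± 0.14, adjusted p = 0.0109), and fell by 0.534 with TGFb1 alone against control (adjusted p = 0.00952). CHCHD4, which imports cysteine-rich subunits, fell by 0.663 with valproate (adjusted p = 1.24e-05). With TGFb1 alone against control, where 8.39% of all genes rose and 9.97% fell, 2 assembly factors rose and 4 fell, 1 gene of electron carriers rose, 2 genes of the citric acid cycle list fell, 2 regulators rose, and in the import list 1 gene rose and 1 fell.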

How the data were processed

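RNA of 14 PANC-1 cultures was measured on Affymetrix 3-prime arrays, and groups follow the treatment labels. Each deposited value is a log2 intensity computed by the authors with RMA (R package affy 1.44.0), per the submitters' processing notes. RMA corrects background, equalises the distributions of arrays and combines the probes of a set, so a shift shared by all genes cannot be seen. Which arrays were normalised together is not given in the sources used here. The submitters call the replicates biological.

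In the platform's annotation 44898 of 49193 probe sets named 1 gene, 1825 several and 2470 none. Each of 18129 genes was represented by its brightest probe set, by the mean of the 14 arrays. The dimmest 40% of genes (7251) were left out, which kept 10878 genes with means of at least 6.88. A limma 3.58.1 model (R 4.3.3) with a mean for each group used every array and was tested on simulated data. It gave 6 comparisons, with Benjamini-Hochberg adjustment over all genes tested at a threshold of 0.05. Precision is limited by the number of arrays. The genes and lists were chosen with earlier results of these data known.

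Named genes were up to 10 of the largest rises and 10 of the largest falls that passed in each inhibitor group against TGFb1 and in TGFb1 against control, and 5 each in the other comparisons. To these were added a list of catalytic and regulatory subunits, all NDUFAF genes, the 5 brightest and 5 dimmest genes, the largest difference that did not pass, and up to 3 genes that passed from each other list. Of the genes that met this rule, NDUFA1, NDUFB7, ATP5F1A, ATP5F1B and ATP5F1C are not described singly. Other subunits are named where a complex is described. CCDC127, CEBPZ and PPARGC1A were chosen after their values were seen.

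Same-numbered arrays were taken as possible pairs where their deviations from the group means correlated above 0.1 over genes in each replicate. TGFb1 and control met this (0.387, 0.359, 0.542 and 0.705), although with replicates 1 to 3 alone the correlations were -0.258, 0.151 and 0.588. No other comparison met it. The values reported for TGFb1 against control are nonetheless from the fit without pairs, and the replicate block is an alternative. The alternatives changed the brightness limit, the use of probe sets, the scaling, the variance model, the groups fitted, the replicate block, a batch term for replicate 4 and the threshold, or left out arrays. Leaving out TGFb1 replicates 2 and 4 together was added after the data were seen. Promoters are from RefSeq (GRCh38.p14), and plots were made in matplotlib 3.10.9 with Python 3.11.15.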

Additional observations from a re-analysis of the deposited data

Results flagged for a closer look

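Among 106 groups of 4 arrays (the named genes in the TGFb1 and control groups), 8 held an array far from the other 3 (a gap to the nearest that took up most of the group's range), and chance gives about 1 in 20. TGFb1 replicate 4 was that array for 3 genes: COX7A2L at 12.15, against 12.44 to 12.47 in the other 3, NDUFB2 at 12.81, against 12.65 to 12.67, and NDUFS1 at 10.93, against 10.76 to 10.78. TGFb1 replicate 2 was that array for COX6A1 at 14.04, against 13.92 to 13.94, and for SDHD at 11.96, against 12.14 to 12.17. In the control group UQCRH had 13.27 in replicate 1, against 13.15 to 13.16, NDUFV1 had 10.57 in replicate 1, against 10.42 to 10.45, and NDUFA2 had 10.28 in replicate 3, against 10.40 in each of the others.

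The fall of COX7A2L with acriflavine against TGFb1 alone was -0.428 without TGFb1 replicate 4, and that of NDUFB2 with valproate was -0.421, and both still passed. The fall of SDHD with valproate was -0.349 without TGFb1 replicate 2 and still passed.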

How the results depend on the processing

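In each comparison the median difference of the tested genes kept its sign under every alternative computed for it (20 to 22 for each, since the threshold leaves a median as it is and an array was left out only of comparisons that use it). With arrays left out in turn it was 0.166 to 0.225 for acriflavine against TGFb1, 0.143 to 0.224 against control and 0.112 to 0.168 against valproate. It was 0.041 to 0.083 for valproate against TGFb1, 0.006 to 0.047 against control, and -0.041 to -0.001 for TGFb1 against control. The counts of changed genes in the 3 acriflavine comparisons stayed within 1.5 times of 47, 44 and 36 (34 to 51, 35 to 43 and 28 to 32 with an array left out). With arrays shifted to the same median, 33 genes rose and 6 fell with acriflavine against TGFb1. The median was then 0.149, and that of all genes tested was -0.00979. Of all genes tested, 43.5% changed in that setting.

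For TGFb1 against control the count of 5 was 3 without a brightness limit, 3 with the dimmest 20% left out, 3 with every probe set tested, 22 with array weights, 0 with only the groups compared (5 at an unadjusted p under 0.05), 9 with the replicate block, 12 with a batch term for replicate 4, 10 without both replicates 4, 2 at an adjusted p of 0.01, 8 without TGFb1 replicates 2 and 4, and 3 to 8 with an array left out. For valproate against TGFb1 the count of 11 was 19 with trend and robust eBayes, 38 with array weights, 5 with only the groups compared, 21 with the batch term, 20 without both replicates 4, 6 at an adjusted p of 0.01, 18 without TGFb1 replicates 2 and 4, and 6 to 19 with an array left out. For valproate against control the count of 15 was 32 with array weights, 6 at an adjusted p of 0.01, 24 without TGFb1 replicates 2 and 4, and 9 to 16 with an array left out. The share of all genes tested that changed moved too in several settings. For TGFb1 against control it was 47.5% with array weights, 8.85% with only the groups compared and 32.6% with the batch term. The main fit gave 18.4%. For valproate against TGFb1 it was 58.8%, 20.8% and 45.1% in the same order. It was 31.3% both in the main fit and with trend and robust eBayes. For valproate against control it was 60.6% with array weights and 36.7% in the main fit. The cause was not tested.

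The replicate block gave 52 calls for acriflavine against TGFb1 (47 shared with the fit without it), 15 for valproate against TGFb1 (11 shared), and 46 for acriflavine against control (42 shared). Of all genes tested, 53.2%, 42.1% and 55.5% changed with the block in these comparisons. With the mean of a gene's probe sets UQCRH was -0.012 for acriflavine against TGFb1 and -0.098 against control, and NDUFB3 was -0.093 for valproate against TGFb1. Without _x_at probe sets COX4I1 was -0.114 for acriflavine against TGFb1.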
